A study of Mus musculus with 4 samples.

Results

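The genes described here encode 10 junction, transport and vessel-wall proteins of the blood-brain barrier: Cldn5, Ocln, Tjp1, Slc2a1, Slc7a5, Mfsd2a, Slco1a4, Abcb1a, Abcg2 and Plvap. They were taken by symbol from a feature list of 55403 genes (55401 mouse and 2 human), and every one of the 10 was found there once. The measurements are unique molecular identifier (UMI) counts from single nuclei of mouse hippocampus. Frozen tissue was pooled by group, its nuclei were partitioned in droplets with a 10x Genomics 3′ kit, and 4 libraries were sequenced. There was 1 library of wild-type mice (WT), 2 of PS19 mice and 1 of PS19 mice that also overexpressed the sorting receptor SORLA (TG_PS19). PS19 mice carry human tau of the 1N4R form with the P301S substitution under the prion protein (Prnp) promoter. The SORLA transgene sits in the Rosa26 locus behind a CMV/β-actin promoter. The animals were littermates of these crosses and the series title calls them aged, but their exact age, number and sex are not given, nor whether the PS19 libraries hold separate pools. SORLA knockout mice are named in the breeding scheme and were not analysed here. WT and TG_PS19 have no replicate, and p-values measure only the spread between the PS19 libraries, which the test shares across genes.

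The blood-brain barrier is formed by endothelial cells, whose tight junctions seal the space between neighbours so that solutes must cross the cells themselves. Carriers in the endothelial membrane import glucose, amino acids and lipids, while ATP-driven pumps return many drugs and metabolites to the blood. Plvap, which forms the diaphragms of fenestrae and caveolae, is low in mature barrier vessels and is used as a marker of leaky or peripheral ones.

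Promoter sequence was examined because most of the genes shared 1 class of nuclei as their main site. RefSeq entries (build GRCm38.p6) were held for 8 of the 10 genes, with 11 windows in all, each covering the 250 bases before an annotated start. Windows for Slco1a4 and Abcb1a, the genes with the largest share of their UMIs in endothelial nuclei, and for the junction genes Cldn5 and Tjp1, at opposite ends of that share, are printed 5′ to 3′ on the gene's strand. Capitals mark matches, on either strand, to 4 short motifs: CACCC (KLF factors), CTTTGA (TCF/LEF factors), CCGGAA (ETS factors) and TGTTTA (forkhead factors).
Slco1a4, chr6:141856221-141856470, minus strand: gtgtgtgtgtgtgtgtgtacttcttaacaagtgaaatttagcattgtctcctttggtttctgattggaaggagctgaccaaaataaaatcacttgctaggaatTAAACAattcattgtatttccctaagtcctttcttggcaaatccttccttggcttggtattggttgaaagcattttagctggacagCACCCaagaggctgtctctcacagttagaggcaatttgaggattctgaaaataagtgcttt
Abcb1a, chr5:8566841-8567090, plus strand: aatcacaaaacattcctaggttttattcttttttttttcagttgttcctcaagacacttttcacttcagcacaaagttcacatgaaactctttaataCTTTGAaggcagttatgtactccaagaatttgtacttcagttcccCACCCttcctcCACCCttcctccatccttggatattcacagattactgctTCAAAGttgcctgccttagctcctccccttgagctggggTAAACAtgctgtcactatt
Cldn5, chr16:18776597-18776846, plus strand: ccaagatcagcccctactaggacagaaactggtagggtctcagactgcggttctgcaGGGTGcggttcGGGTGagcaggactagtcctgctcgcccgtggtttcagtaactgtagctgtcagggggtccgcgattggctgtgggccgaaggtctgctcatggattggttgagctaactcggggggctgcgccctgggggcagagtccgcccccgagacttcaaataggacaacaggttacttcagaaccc
Tjp1, chr7:65371245-65371494, minus strand: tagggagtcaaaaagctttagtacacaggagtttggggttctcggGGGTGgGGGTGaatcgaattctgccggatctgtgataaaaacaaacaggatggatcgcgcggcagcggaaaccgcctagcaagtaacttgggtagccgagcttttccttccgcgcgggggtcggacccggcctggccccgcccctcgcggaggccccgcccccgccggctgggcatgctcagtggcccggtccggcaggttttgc

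The Slco1a4 and Abcb1a windows were poor in G and C (39.2% and 40.4%, against a median of 52.4% over 32851 windows) and held 0 CpG dinucleotides. The Cldn5 and Tjp1 windows had 59.6% and 63.2% G and C with 12 and 22 CpG dinucleotides. CACCC occurred in 8 of the 11 windows of these genes and in 52.0% of all windows of that length. CTTTGA was in 2 of 11 windows (13.8% of all windows), CCGGAA in 1 of 11 (12.0%) and TGTTTA in 2 of 11 (12.0%). The Abcb1a window held 2 matches each to CACCC and CTTTGA and 1 to TGTTTA, the last of them 19 bases before the start. A match is a description of the letters and not evidence of a binding site. The RefSeq start of Abcb1a lies 93.0 kb before the first base of the gene in GENCODE M21, and that of Tjp1 lies 157 kb inside the gene, so these windows belong to single annotated transcripts.

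In GENCODE M21 (GRCm38), Cldn5 (ENSMUSG00000041378.2) is a gene of 1.416 kb on the plus strand of chromosome 16, from 18776847 to 18778262. Tjp1 (ENSMUSG00000030516.14) is the longest at 232 kb, on the minus strand of chromosome 7 from 65296165 to 65527781. Abcg2 (ENSMUSG00000029802.13) spans 111 kb of the plus strand of chromosome 6 from 58584523 to 58695676, and Slco1a4 (ENSMUSG00000030237.14) 50.8 kb of its minus strand from 141805440 to 141856199. Abcb1a (ENSMUSG00000040584.8) covers 88.5 kb of chromosome 5 from 8660077 to 8748575 on the plus strand, and Ocln (ENSMUSG00000021638.12) 56.2 kb of chromosome 13 from 100496507 to 100552718 on the minus strand. Slc2a1 (ENSMUSG00000028645.11) lies on the plus strand of chromosome 4 from 119108711 to 119137983 and Mfsd2a (ENSMUSG00000028655.11) on its minus strand from 122946850 to 122961188. Slc7a5 (ENSMUSG00000040010.10, 121881150 to 121907694) and Plvap (ENSMUSG00000034845.6, 71497765 to 71511752) are on the minus strand of chromosome 8. On the other strand, Slc2a1 overlaps the antisense genes Gm12867 and Gm12868, Slc7a5 overlaps Gm20388, Plvap overlaps Gtpbp3, Tjp1 overlaps the processed pseudogene Gm44795 and Abcb1a overlaps the unconfirmed gene model Gm42686. Further unconfirmed models lie on the same strand in Tjp1 and Abcb1a, as does a microRNA gene in Slc2a1. Since the counting of strand is not given in the sources used here, the levels of these 5 genes are uncertain to that extent, and reads of Abcb1a and Slco1a4 could be shared with close paralogs such as Abcb1b and Slco1a5.

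After filters on depth and doublets, 11458 WT, 4467 and 4728 PS19 and 8963 TG_PS19 nuclei were kept, from libraries of 20064024 to 48670532 UMIs. Classes of nuclei were rebuilt from clusters and marker lists, so every class name means that the nuclei resembled that class. The 10 genes were left out of the clustering and of all marker lists. Human SORL1 had 2 UMIs in WT, 7 and 0 in the PS19 libraries and 2199 in TG_PS19, and human MAPT had 0 UMIs in WT and 335, 461 and 445 in the 3 PS19-derived libraries. The TG_PS19 library stood apart in sex-linked RNA, with Xist at 1062 CPM (a gene's count scaled to a total of 1000000 UMIs) against 2.50 to 4.15 CPM in the others. Library pairs shared 5 to 32 cell barcodes, at most 0.474% of the smaller library.

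Endothelial-like nuclei numbered 350 in WT, 130 and 153 in the PS19 libraries and 227 in TG_PS19, 860 in all. All 10 endothelial markers were raised in their cluster, including the VEGF receptor Flt1 (2780 to 3946 CPM over the 4 libraries), the transcription factor Mecom (3141 to 4251 CPM) and the phosphatase Ptprb (2183 to 2494 CPM). They made up 3.21% of named WT nuclei (exact 95% binomial interval 2.89 to 3.56), 2.99% (2.50 to 3.54) and 3.33% (2.83 to 3.89) in the PS19 libraries and 2.80% (2.45 to 3.18) in TG_PS19, so these intervals overlapped between all libraries. The summed class held 550477, 248549, 339222 and 370591 UMIs in WT, PS19 replicates 1 and 2 and TG_PS19. The median was 1412, 1615.5, 1959 and 1373 UMIs per nucleus. Intervals cover counting error only.

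Barrier transcripts occurred together in these nuclei. At least 3 of the 10 genes had a UMI in 814 of the 860 endothelial-like nuclei (94.7%), with a median of 5 genes per nucleus. The share was 94.3% in WT, 96.2% and 93.5% in PS19 and 95.2% in TG_PS19. The same held for 9.46% of neurons, although their median depth was 7964 UMIs against 1486, and for 0.788% of mural nuclei, the pericytes and smooth muscle of the vessel wall. Of all UMIs of a gene, the share found in endothelial-like nuclei was 87.2% for Slco1a4, 75.0% for Abcb1a, 62.4% for Cldn5, 37.8% for Slc7a5, 35.8% for Slc2a1, 33.4% for Abcg2 and 29.2% for Ocln. It was 7.59% for Tjp1, 6.50% for Mfsd2a and 2.59% for Plvap, whose UMIs came mostly from the much more numerous other nuclei. Classes are ordered below over the 11 with 50 or more nuclei in every library, and smaller classes are left out of the order. Some of those had higher levels than the class named second. In choroid plexus epithelium (24 and 24 nuclei in the PS19 libraries, 39 in TG_PS19 and 0 in WT), Slco1a4 was at 335, 272 and 309 CPM and Ocln at 109, 76.8 and 110 CPM. In ependymal nuclei (27 and 12 in the PS19 libraries) Slc2a1 was at 230 and 159 CPM. In CA3 and other excitatory neurons Plvap was at 6.16 to 27.5 CPM.

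**Figure D1:**
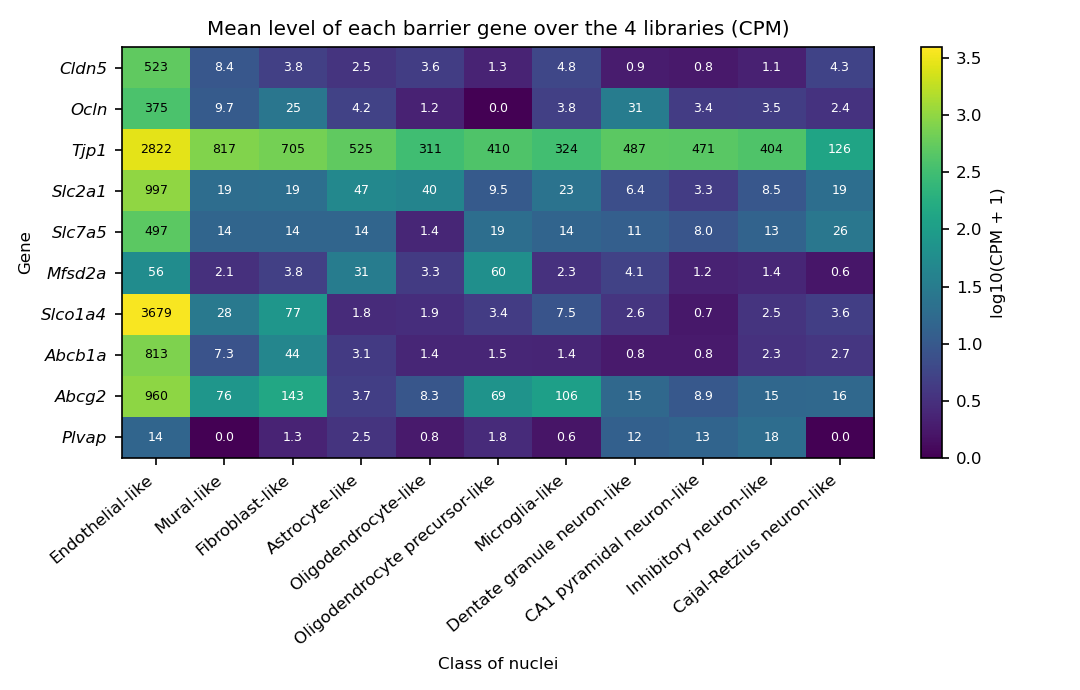
Mean level of each gene (CPM, mean of the 4 libraries, log colour scale) in each of the 11 tested classes of nuclei. Endothelial-like nuclei held the highest mean for 8 genes, whereas Mfsd2a was highest in oligodendrocyte precursors and Plvap in inhibitory neurons.

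Cldn5, Ocln and Tjp1 build the tight junction: Cldn5 and Ocln span the membrane and Tjp1 (ZO-1) ties them to the cytoskeleton. Cldn5 stood at 538 CPM in WT (296 UMIs), 555 and 433 CPM in the PS19 libraries (138 and 147 UMIs) and 567 CPM in TG_PS19 (210 UMIs) in endothelial-like nuclei. Among the ordered classes mural nuclei came next with a mean of 8.45 CPM, 61.9-fold lower, and their 4 libraries did not overlap those of endothelial-like nuclei. An unnamed cluster of WT nuclei outside that order, described further below, had Cldn5 at 225 CPM. From mural nuclei down, the remaining classes overlapped their neighbours in the order of Cldn5 levels. After thinning each nucleus to 1000 UMIs, a Cldn5 UMI was found in 37.2%, 35.3%, 38.8% and 45.1% of endothelial-like nuclei (WT, PS19 replicates 1 and 2, TG_PS19), and in 0% to 0.255% of neurons. Without thinning these shares were 50%, 50.8%, 54.2% and 51.1%.

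Ocln was at 360 CPM in WT, 306 and 430 CPM in the PS19 libraries and 405 CPM in TG_PS19 in endothelial-like nuclei, the PS19 libraries lying on either side of WT and TG_PS19. Among the 11 ordered classes dentate granule neurons came second for Ocln at 29.0 to 33.8 CPM (mean 31.4, 12.0-fold lower than the endothelial mean of 375 CPM), and because of their number and depth they held 48.1% of all Ocln UMIs. Oligodendrocyte precursors had 0 Ocln UMIs in every library. Tjp1 was at 2649 CPM in WT, 2836 and 2927 CPM in the PS19 libraries and 2874 CPM in TG_PS19. Its level in endothelial-like nuclei was 3.45-fold that in mural nuclei (817 CPM), and Tjp1 UMIs were found in every tested class, down to 126 CPM in Cajal-Retzius neurons. A Tjp1 UMI was found in 33.3% to 36.8% of neurons thinned to 1000 UMIs, against 85.0% to 87.4% of endothelial-like nuclei.

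Nutrient carriers followed. Slc2a1 (GLUT1), the main glucose transporter of the barrier, was at 986 CPM in WT (95% Poisson interval 905 to 1073), 1139 (1010 to 1279) and 1049 (943 to 1164) CPM in the PS19 libraries and 815 (726 to 912) CPM in TG_PS19. TG_PS19 was lowest, and its interval overlapped that of WT but neither PS19 interval. Of the ordered classes, astrocytes were second for Slc2a1 at 33.0 to 58.2 CPM, 21.1-fold lower on the mean, and overlapped oligodendrocytes. Slc7a5 (LAT1), a carrier of large neutral amino acids, was at 463 CPM in WT, 503 and 475 CPM in the PS19 libraries and 548 CPM in TG_PS19. Its interval in TG_PS19 (475 to 629) overlapped that in WT (408 to 524), and the next class for Slc7a5, Cajal-Retzius neurons, was 19.1-fold lower.

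Mfsd2a, a lysophospholipid transporter that imports docosahexaenoic acid and restrains caveolar transcytosis, was a low gene in these nuclei. Endothelial-like nuclei gave 47 UMIs in WT, 16 and 9 in PS19 and 18 in TG_PS19, or 85.4, 64.4, 26.5 and 48.6 CPM. WT was highest, while TG_PS19 lay between the PS19 libraries. Oligodendrocyte precursors, at 59.8 CPM in WT, 82.0 and 49.0 CPM in the PS19 libraries and 49.9 CPM in TG_PS19, were not separated from endothelial-like nuclei, nor were astrocytes (24.0 to 38.0 CPM). Astrocytes held 43.9% of all Mfsd2a UMIs. The Mfsd2a share after thinning was 7.72%, 7.76%, 3.40% and 6.59% of endothelial-like nuclei in the same order, and at most 0.298% of neurons.

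Slco1a4 (OATP1A4), an organic anion transporter of the barrier membrane, had 5507 of its 6313 UMIs in endothelial-like nuclei. It stood at 3575 CPM in WT, 3850 and 3835 CPM in the PS19 libraries and 3457 CPM in TG_PS19, from 1968, 957, 1301 and 1281 UMIs. The PS19 libraries were highest and TG_PS19 lowest. Of the ordered classes, fibroblasts were next at 51.2 to 90.4 CPM, 48.0-fold lower on the mean, followed by mural nuclei at 19.8 to 36.1 CPM. A Slco1a4 UMI was found in 83.9%, 86.2%, 76.2% and 87.4% of thinned endothelial-like nuclei, and in at most 0.266% of neurons.

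Abcb1a (P-glycoprotein) and Abcg2 (BCRP) are the main drug efflux pumps of the barrier. Abcb1a was at 770 CPM in WT, 789 and 793 CPM in the PS19 libraries and 901 CPM in TG_PS19, with overlapping intervals in all 4 libraries. Fibroblasts were second for Abcb1a at a mean of 43.9 CPM, 18.5-fold lower. Abcg2 was at 643 CPM in WT (354 UMIs, 95% Poisson interval 578 to 713.7), 1058 (263 UMIs, 934 to 1194) and 1029 (349 UMIs, 924 to 1143) CPM in the PS19 libraries and 1112 (412 UMIs, 1007 to 1224) CPM in TG_PS19. WT was lowest, and its interval did not meet that of any other library. The share of thinned endothelial-like nuclei with an Abcg2 UMI was 43.2% in WT, 61.2% and 59.2% in PS19 and 58.2% in TG_PS19, against 1.33% to 2.13% of neurons. Of the remaining classes, fibroblasts (mean 143 CPM, 6.73-fold lower than endothelial-like nuclei) and microglia (106 CPM) had the most Abcg2.

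Plvap was low in endothelial-like nuclei, with 6 UMIs in WT, 1 and 4 in PS19 and 11 in TG_PS19 (10.9, 4.02, 11.8 and 29.7 CPM). These came from 5, 1, 4 and 5 nuclei, and 1 TG_PS19 nucleus held 7 of its library's 11 UMIs. After thinning, the Plvap share was 1.40%, 0%, 1.36% and 1.65% of endothelial-like nuclei and 0.893% to 1.77% of neurons. Mural nuclei had 0 Plvap UMIs in every library, with upper limits of 1.47% to 2.86% for their thinned share (exact 95% binomial intervals), and microglia averaged 0.58 CPM. The part of free RNA in these few UMIs was not tested. Of the ordered classes, inhibitory neurons had the highest mean Plvap level (18.3 CPM, 13.6 to 27.4), which overlapped that of endothelial-like nuclei. The 15 endothelial-like nuclei with a Plvap UMI, chosen by that UMI, had a median depth of 2359 UMIs against 1482 in the other 845. In them Cldn5 was at 145 CPM (5 UMIs) against 533, Slco1a4 at 1421 against 3702, Slc7a5 at 29.0 (1 UMI) against 504 and Abcg2 at 841 against 915 CPM. These values are a description of few nuclei and were not tested.

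**Figure D2:**
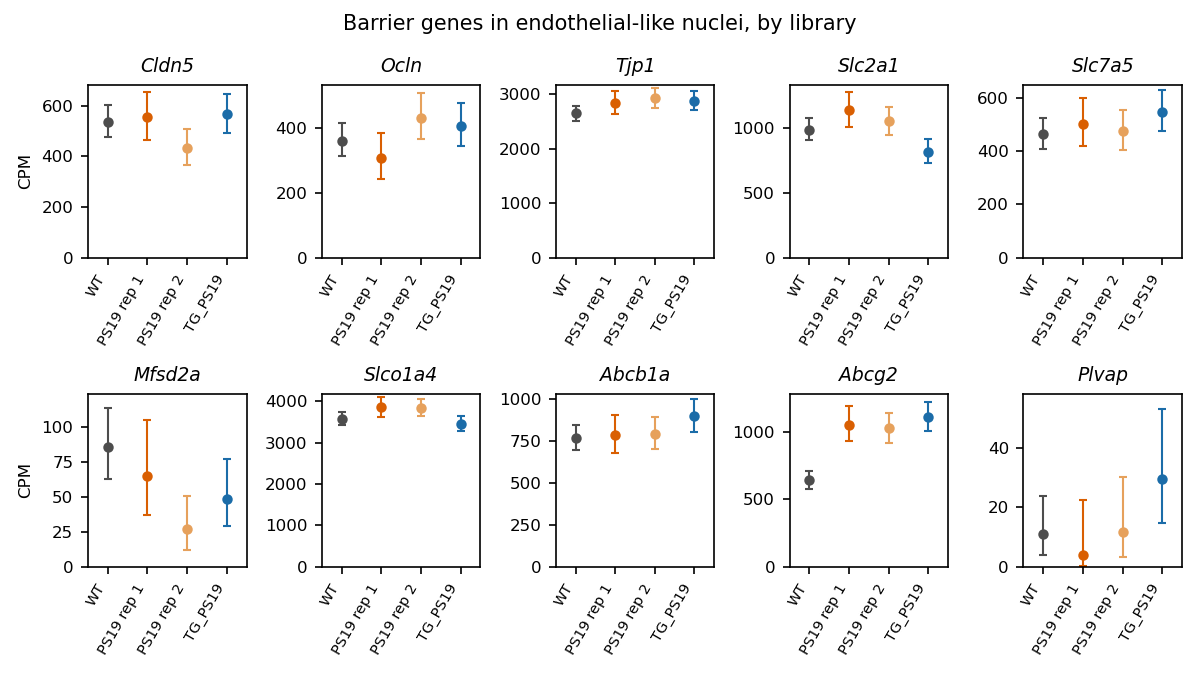
Level of each gene (CPM) in the summed endothelial-like nuclei of each library, with exact 95% Poisson intervals as error bars, 1 panel per gene with its own scale. Abcg2 was lowest in WT at 643 CPM against 1029 to 1112 CPM in the other libraries, and Slc2a1 lowest in TG_PS19 at 815 CPM.

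The endothelial-like nuclei were not uniform for these genes. Clustering at a finer resolution set apart 136 nuclei led by Eln, Bmx, Mgp and Gkn3, genes of the arterial wall and arterial endothelium. They made up 12.0% of endothelial-like nuclei in WT, 16.9% and 17% in PS19 and 20.3% in TG_PS19. Cldn5 was higher in the arterial nuclei than in the other 724, at 849 against 459 CPM (1.85-fold, higher in 4 of 4 libraries). Tjp1 was lower, at 1329 against 3092 CPM (0.430-fold), as were Abcb1a at 428 against 887 CPM (0.483-fold), Abcg2 at 270 against 1042 CPM (0.259-fold) and Slco1a4 at 956 against 4190 CPM (0.228-fold), each in 4 of 4 libraries. Slc7a5 had 4 UMIs (15.9 CPM) in arterial nuclei and 740 UMIs (589 CPM) in the others. Slc2a1 (773 against 1026 CPM) and Ocln (321 against 389 CPM) were lower in 3 of 4 libraries. Mfsd2a had 2 against 88 UMIs and Plvap 2 against 20. The clusters were cut from the same nuclei, so these differences are a description without a test.

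**Figure D3:**
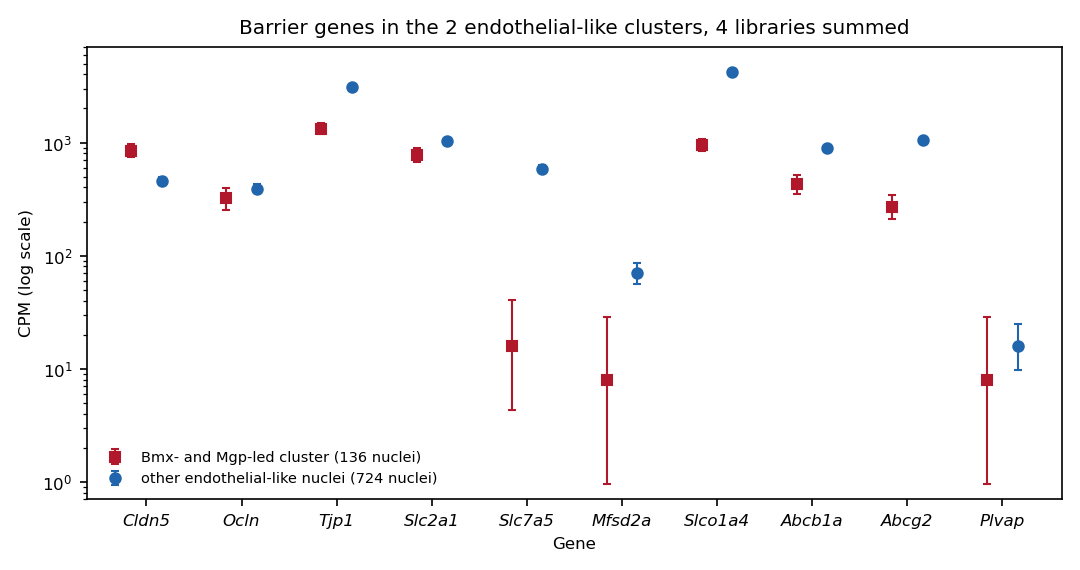
Level of each gene (CPM, log axis) in the arterial cluster led by Bmx and Mgp (136 nuclei, squares) and in the other 724 endothelial-like nuclei (circles), with the 4 libraries summed and exact 95% Poisson intervals as error bars. Cldn5 lies higher in arterial nuclei (849 against 459 CPM), and Slc7a5 (15.9 against 589 CPM), Abcg2 and Slco1a4 lie lower.

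Over the 44 points of 11 classes in 4 libraries, the genes whose log2(CPM + 10) values were most like those of each barrier gene were as follows, by Pearson's r, which is a description because points share libraries and depth. Cldn5 was closest to Dipk2b (r 0.983), the endothelial receptor Tie1 (0.982) and AU021092 (0.980). Slco1a4 was closest to Adgrf5 (0.979), Klf2 (0.977) and Foxq1 (0.976), and Abcb1a to Klf4 (0.977), Paqr5 (0.974) and Klf2 (0.972), where Klf2 and Klf4 are flow-responsive transcription factors of endothelium. Ocln was closest to Il1r1 (0.953), Rflnb (0.938) and Foxq1 (0.936), Tjp1 to Il1r1 (0.869), Cavin1 (0.848) and Adgre5 (0.846), and Slc7a5 to Sgms1 (0.954), Vwf (0.949) and Rasip1 (0.947). Slc2a1 was closest to Rnf125 (0.941), Polk (0.938) and Sox7 (0.935), and Abcg2 to Ccny (0.909), Clec2d (0.907) and Lnx2 (0.907). The genes closest to Mfsd2a were Bend7 (0.886), Als2cl (0.841) and Ddah1 (0.838). Those closest to Plvap were the neuronal nitric oxide synthase Nos1 (0.899), Gm33206 (0.848) and Pitpnm3 (0.831).

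The edgeR test called none of the 10 genes between genotypes in endothelial-like nuclei (quasi-likelihood test, Benjamini-Hochberg adjustment, threshold 0.05). In PS19 against WT, 0 of 10 were called, where 0.728% of all 7558 genes tested were called. An unadjusted p under 0.05 was found for 2 of the 10 and for 526 of the 7558. In TG_PS19 against PS19, 0 of 10 were called (0.41% of all genes), with 0 of 10 and 530 of 7558 at an unadjusted p under 0.05. In TG_PS19 against WT, 0 of 10 were called (0.556% of all genes), with 1 of 10 and 502 of 7558 at an unadjusted p under 0.05. DESeq2 also called 0 of 10 in each comparison. The comparisons share libraries and are not independent. The median log2 fold change of the 10 genes was 0.09, 0.18 and 0.21, beside 0.01, −0.02 and −0.02 over all genes. These medians include Plvap, which passed the low-count filter through TG_PS19 alone. Counts of PS19 against WT were simulated over these 7558 genes, with the changed genes drawn at random above a minimum mean level. Plvap, at a mean of 14.1 CPM, lay below that level. The test recovered 48.4% of genes raised 2-fold and 22.4% of those lowered to 0.5-fold, so changes of that size could pass undetected. These rates hold for that mix of levels and were not worked out for each of the 10 genes.

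Abcg2 came nearest to the threshold. Its log2 fold change was 0.72 in PS19 against WT (SE 0.21, edgeR adjusted p 0.0759) and 0.85 in TG_PS19 against WT (SE 0.24, edgeR adjusted p 0.0597), and 0.13 (SE 0.21) in TG_PS19 against PS19. Adjusted p-values for Abcg2 under other settings of the processing, the one without arterial nuclei apart, ran from 0.0503 to 1, the highest being those of DESeq2. The arterial nuclei, which hold little Abcg2 and differ in share between libraries, were left out in an alternative chosen after seeing the data. Abcg2 was then at 706 CPM in WT, 1234 and 1213 CPM in the PS19 libraries and 1300 CPM in TG_PS19, and it passed the threshold in PS19 against WT (0.83, edgeR adjusted p 0.0254) and in TG_PS19 against WT (0.96, edgeR adjusted p 0.0240). Within TG_PS19, Abcg2 stood at 722 CPM (503 to 1004) in the 31 endothelial-like nuclei called male by Y-linked UMIs and at 1224 CPM (1069 to 1395) in the 107 called female by Xist. With the male-called nuclei of TG_PS19 alone, the log2 fold change of Abcg2 was 0.08 against WT and −0.65 against PS19. All endothelial-like nuclei of WT and PS19 stayed in that fit. Of these, 179 of 350 in WT and 71 of 130 and 89 of 153 in PS19 were called male. The 2 sides were thus not chosen alike. Libraries other than TG_PS19 had 0 endothelial-like nuclei called by Xist, so that sex and the SORLA transgene cannot be told apart in the whole library.

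Slc2a1 had a log2 fold change of −0.38 in TG_PS19 against PS19 (SE 0.21, edgeR adjusted p 0.778) and 0.17 (SE 0.20) in PS19 against WT. It was at 475 CPM (23 UMIs) in male-called, 925 CPM in female-called and 788 CPM in uncalled TG_PS19 nuclei. With the male-called TG_PS19 nuclei alone, against all PS19 nuclei whether called or not, the log2 fold change of Slc2a1 was −1.32 (edgeR adjusted p 0.0173). That value rests on the 23 UMIs and is not a comparison of nuclei matched by sex call. Mfsd2a had a log2 fold change of −0.95 in PS19 against WT (SE 0.41, edgeR adjusted p 0.454) that ran from −1.64 without PS19 replicate 1 to −0.38 without PS19 replicate 2. For Cldn5, Ocln, Tjp1, Slc7a5, Slco1a4 and Abcb1a, log2 fold changes lay between −0.11 and 0.31 in the 3 comparisons, with standard errors of 0.17 to 0.28. Those of Plvap, from −0.35 to 1.83, had standard errors of 1.86 to 1.99 and rest on 22 UMIs. Plvap passed the low-count filter only through TG_PS19, the library where it was highest. Its changes in TG_PS19 are therefore not independent of that filter. Of the 18 marker lists, 1 (inhibitory neurons) summed to its lowest level in WT, as Abcg2 did, and 4 to their highest. Among the lists in endothelial-like nuclei, the 8 astrocyte markers summed to 856, 583, 200 and 656 CPM and the 8 oligodendrocyte markers to 1524, 1887, 1350 and 2029 CPM in WT, PS19 replicates 1 and 2 and TG_PS19. The part of these levels in the comparisons was not tested.

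**Figure D4:**
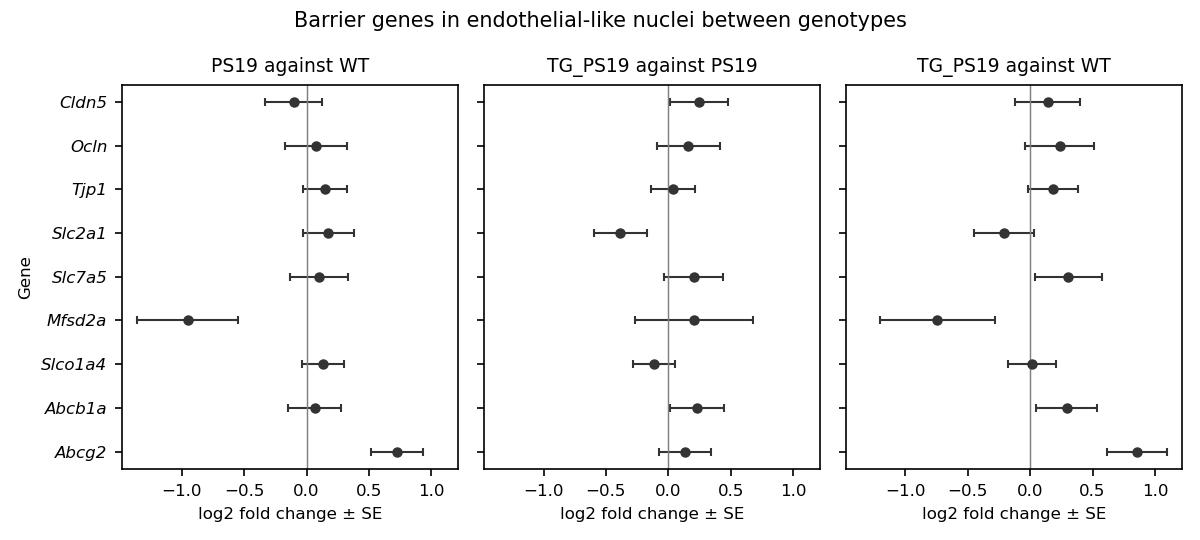
Log2 fold change of 9 barrier genes in endothelial-like nuclei for the 3 comparisons, with bars of 1 standard error from edgeR. No point passed an adjusted p of 0.05, and Abcg2 is highest in both comparisons with WT, at 0.72 and 0.85. Plvap is left out because of its wide errors.

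Other genes of the barrier were followed with a list of 67, of which 60 were tested in endothelial-like nuclei. The edgeR test called 0 of 60 in each comparison, and DESeq2 called 0. An unadjusted edgeR p under 0.05 was found for 10, 9 and 9 of the 60, and for 526, 530 and 502 of all 7558 genes. Their median log2 fold changes were −0.07 (26 higher, 34 lower) in PS19 against WT, 0.10 (33 higher, 27 lower) in TG_PS19 against PS19 and −0.06 (25 higher, 35 lower) in TG_PS19 against WT. By role, the tested genes comprised 11 of junctions, 20 solute transporters and receptors, 4 efflux pumps, 5 of caveolar transcytosis, 18 Wnt and barrier regulators and 3 of leukocyte adhesion, with 1 gene in 2 groups. Median log2 fold changes of the groups ran from −0.53 (caveolar transcytosis) to 0.58 (leukocyte adhesion) in PS19 against WT. They ran from −0.46 (efflux pumps) to 0.19 (solute transporters and receptors) in TG_PS19 against PS19 and from −0.31 (caveolar transcytosis) to 0.18 (solute transporters and receptors) in TG_PS19 against WT. The flippase gene Atp10a, named after its values were seen, had the lowest adjusted p of the list, with a log2 fold change of 0.83 in TG_PS19 against WT (edgeR adjusted p 0.0531).

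Of 9 genes that mark arteries, 7 were tested in the same nuclei. The edgeR test called 1 higher in PS19 against WT (4 of 7 higher, 3 lower, median log2 fold change 0.11), 1 higher in TG_PS19 against PS19 (5 higher, 2 lower, median 0.59) and 2 higher in TG_PS19 against WT (6 higher, 1 lower, median 0.42). None was called lower. Over all 7558 genes tested, 39 were called higher and 16 lower, 21 and 10, and 39 and 3 in the same order of comparisons. Their median log2 fold changes were 0.01, −0.02 and −0.02. Higher calls thus outnumbered lower ones over all genes too. Mgp, a matrix protein that restrains calcification, had 150 UMIs in WT, 173 and 141 in PS19 and 309 in TG_PS19, and rose by a log2 fold change of 1.04 in PS19 against WT (SE 0.24, edgeR adjusted p 0.0082) and of 1.68 in TG_PS19 against WT (SE 0.27, edgeR adjusted p 7.19e-07). The tyrosine kinase gene Bmx (69, 58, 82 and 116 UMIs) rose by 1.38 in TG_PS19 against WT (edgeR adjusted p 0.00505). The lymphangiogenic growth factor gene Vegfc (172, 35, 76 and 148 UMIs) was higher by 1.14 in TG_PS19 than in PS19 (edgeR adjusted p 0.0064). The other 4 tested genes of the list, named after their values were seen, were not called. In PS19 against WT the log2 fold change was 1.05 for Gkn3, 0.11 for Sox17, −0.28 for Efnb2 and −0.80 for Sema3g, and that of Vegfc was −0.72 (edgeR adjusted p 0.286). The share of nuclei in the arterial cluster, 12.0% in WT, 16.9% and 17% in the PS19 libraries and 20.3% in TG_PS19, was thus lowest in WT and highest in TG_PS19, as were the levels of Mgp and Bmx. Vegfc, Sema3g and Efnb2 did not follow that share, being lower in both PS19 libraries than in WT. Levels inside the arterial cluster also differed, in WT, PS19 replicates 1 and 2 and TG_PS19. Mgp was at 1446, 3771, 1691 and 3318 CPM there and Bmx at 867, 992, 1238 and 1219 CPM. The part of the share, or of levels within the cluster, in these calls was not tested. No gene of the capillary or venous lists was called.

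The other classes gave 62 pairs of a barrier gene and a class that could be tested, over 10 classes. In PS19 against WT, 4 pairs were called (1 higher, 3 lower), beside 2.71% of all gene and class pairs. In TG_PS19 against PS19, 2 pairs were called (1 higher, 1 lower; 4.64% of all pairs), and in TG_PS19 against WT 1 pair (lower; 1.73% of all pairs). The numbers with an unadjusted p under 0.05 were 9, 5 and 8 of 62, beside 14118, 18576 and 13577 of all 125627 pairs. Nothing particular to the barrier genes is read from these counts, and DESeq2 called 0 in each comparison.

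As a share of all UMIs, Tjp1 was lower in PS19 microglia than in WT and TG_PS19 microglia. It was at 399 CPM in WT (409 UMIs), 237 and 253 CPM in the PS19 libraries (159 and 217 UMIs) and 408 CPM in TG_PS19 (302 UMIs), the PS19 libraries lying below both others. The log2 fold change of Tjp1 was −0.71 in PS19 against WT (SE 0.16, edgeR adjusted p 0.000243) and 0.83 in TG_PS19 against PS19 (SE 0.16, edgeR adjusted p 1.84e-05), while DESeq2 gave adjusted p-values of 0.432 and 0.315. Of the 18 marker lists, 5 were likewise lower in both PS19 libraries than in WT and TG_PS19 in microglia (microglia, astrocyte, fibroblast, dentate granule neuron and red blood cell), 3 were higher in both and 10 did neither. The 8 microglial markers summed to 13245, 10872, 9736 and 11771 CPM, the 8 astrocyte markers to 831, 646, 444 and 777 CPM and the 7 dentate granule markers to 2123, 1677, 1728 and 2088 CPM. The 8 oligodendrocyte markers (1279, 1092, 1237 and 1203 CPM) and the 8 oligodendrocyte precursor markers (246, 509, 74.5 and 234 CPM) did not show that pattern. Median depth of microglia was 1609, 2238, 2603 and 1655.5 UMIs per nucleus in WT, PS19 replicates 1 and 2 and TG_PS19, highest in the PS19 libraries. A Tjp1 UMI was found in 276 of 601, 102 of 263, 138 of 300 and 201 of 410 nuclei in that order. The part of these markers and of depth in the Tjp1 result was not tested.

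In astrocytes, Slc2a1 was at 58.2 CPM in WT, 54.8 and 42.8 CPM in the PS19 libraries and 33.0 CPM in TG_PS19, and was lower in TG_PS19 than in WT by a log2 fold change of −0.68 (SE 0.19, edgeR adjusted p 0.0281). That call was lost with relative log expression scaling (adjusted p 0.507) and without the low-count filter (adjusted p 0.0505). Over all genes of this class and comparison, relative log expression scaling gave 3 calls in place of 348. Cldn5 in astrocytes came from 42, 3, 4 and 13 UMIs, 1 per nucleus, or 4.99, 1.23, 1.20 and 2.39 CPM, with a log2 fold change of −2.05 in PS19 against WT (SE 0.70, edgeR adjusted p 0.0232, or 0.173 with relative log expression scaling). Low Cldn5 levels were highest in WT in 8 of the 10 other classes, at 3.99 CPM over all named nuclei outside the endothelial class against 1.03 to 1.91 CPM in the other libraries.

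In fibroblasts, Abcb1a was at 73.2 CPM in WT, 36.1 and 26.6 CPM in the PS19 libraries and 39.8 CPM in TG_PS19, with a log2 fold change of −1.21 in PS19 against WT (SE 0.28, edgeR adjusted p 0.0200). This class joined 2 clusters. The smaller one, led by Slc47a1, Bnc2 and Slc26a7, held 159 nuclei in WT, 40 and 43 in PS19 and 22 in TG_PS19, with Abcb1a at 265, 204, 141 and 378 CPM. In the larger cluster Abcb1a was at 2.48 to 4.40 CPM. Abcg2 likewise stood at 531, 345, 318 and 308 CPM in the smaller cluster and at 65.9 to 108 CPM in the larger one. The smaller cluster made up 19.1% of fibroblast-like nuclei in WT, 12.4% and 14.7% in the PS19 libraries and 6.83% in TG_PS19. Its share and the level of Abcb1a in the class were both highest in WT, while among the remaining libraries TG_PS19 had the smallest share and the highest Abcb1a level. The part of the share in the call was not tested.

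Slco1a4 in dentate granule neurons rested on single nuclei. Its UMIs numbered 11 in WT, 38 and 1 in PS19 and 6 in TG_PS19, and 30 of the 38 in PS19 replicate 1 lay in 1 nucleus with 7 more in another. The calls (log2 fold change 2.0 in PS19 against WT, edgeR adjusted p 0.0320, and −2.32 in TG_PS19 against PS19, edgeR adjusted p 0.0128) turned to −2.41 and 2.10 without PS19 replicate 1 and were 3.10 and −3.42 without PS19 replicate 2.

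**Figure D5:**
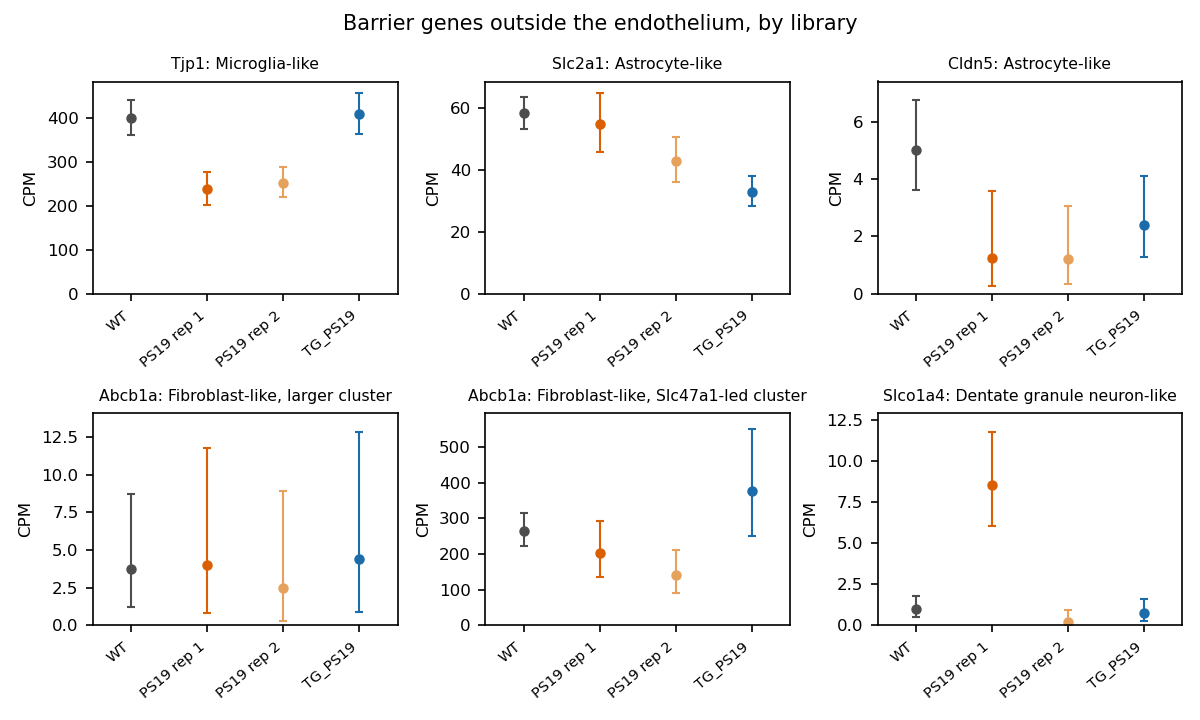
Level (CPM, exact 95% Poisson intervals) in each library for the genes and classes that passed the test outside the endothelial class, with Abcb1a shown in each of the 2 fibroblast clusters apart. Tjp1 in microglia is lower in both PS19 libraries (237 and 253 CPM) than in WT and TG_PS19, and Slco1a4 in dentate granule neurons is raised in PS19 replicate 1 alone.

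Whether a barrier gene responded differently in endothelial-like nuclei than elsewhere was tested as the interaction of class and genotype. There were 98 tests per comparison, over 10 pairs of classes. The low-count filter took both classes of a pair together, so a gene could enter through its level in endothelial-like nuclei. In the other classes alone, 62 pairs of a gene and a class could be tested. Some of the 98 therefore involved a class where the gene was too low to test by itself. In PS19 against WT 5 were called (0.287% of all genes tested were), in TG_PS19 against PS19 0 (0.162%) and in TG_PS19 against WT 1 (0.0477%). An unadjusted p under 0.05 was found for 16, 7 and 14. The share of all genes at that p was not worked out, and nothing particular to the barrier genes is read from these counts. Abcg2 was the gene called most often. Its effect in PS19 against WT was higher in endothelial-like nuclei than in fibroblasts by 1.36 (log2, SE 0.28, edgeR adjusted p 0.00242) and than in oligodendrocytes by 1.28 (SE 0.31, edgeR adjusted p 0.0144), and in TG_PS19 against WT it was higher than in fibroblasts by 1.66 (SE 0.33, edgeR adjusted p 0.000877). Abcg2 in fibroblasts stood at 205 CPM in WT, 111 and 144 CPM in the PS19 libraries and 112 CPM in TG_PS19, and in oligodendrocytes at 10.8, 8.53, 5.78 and 8.02 CPM. With the larger fibroblast cluster alone, the Abcg2 differences from fibroblasts were 0.72 and 0.76 and were no longer called (edgeR adjusted p 0.878 and 0.974). The 3 further differences in PS19 against WT were those of Abcb1a from fibroblasts, Cldn5 from oligodendrocytes and Tjp1 from microglia.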

How the data were processed

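The deposited values are raw UMI counts per gene and nucleus, which the authors made with Cell Ranger (version 7.1.0, per the file headers) on build GRCm38 per the submitters' processing notes. The annotation, intron counting and strand setting are not given in the sources used here. The members and lists were chosen with earlier results of these data known. Named genes were all 10 members, every gene of the pathway and zonation lists called in a comparison (at most 12), the 3 genes most correlated with each member among those with at least 200 UMIs, and the label checks and defining markers; Atp10a and the uncalled arterial genes were named after their values were seen.

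Nuclei with at least 500 UMIs, 300 genes and at most 5% mitochondrial UMIs were kept. Doublets were scored as in Scrublet, with code written in Python 3.11.15, and the highest scores were removed at 0.8% per 1000 nuclei (1303, 172, 194 and 756 nuclei in WT, PS19 replicates 1 and 2 and TG_PS19). Clusters (24) came from 2000 variable genes without the members, 30 principal components, 15 neighbours and Leiden at resolution 1.0 (leidenalg 0.10.2, numpy 2.4.6, scipy 1.17.1), without integration. No cell annotation was used here. A cluster took the name of 1 of 18 marker lists when 4 or more of its markers (or 3 or more that made up 50% of the list) were raised by a log2 fold of 1 over other nuclei in at least 10% of its nuclei. The list with the largest raised share gave the name, and the endothelial class also needed Flt1, Mecom and Ptprb raised. A cluster stayed unnamed where lists tied, where its 10 leading genes had more markers from a different list, or where shallow nuclei had none of their own there. Of 29616 kept nuclei, 27958 were named, and 11 classes had 50 or more nuclei per library.

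Raw counts were summed per library and class and tested with edgeR 4.0.16 (R 4.3.3, limma 3.58.1): TMM scaling after the low-count filter, then two-sided quasi-likelihood F-tests, with Benjamini-Hochberg adjustment within a class. All 4 libraries entered each fit. The PS19 pair gave the only residual degree of freedom, and the lone WT and TG_PS19 libraries were assumed to vary like it. In the endothelial-like fit the spread was shared fully across genes of like level. A p-value or standard error there does not reflect how far that gene itself differed between the PS19 libraries. In endothelial-like nuclei the pair differed beyond sampling noise (chi-square per degree of freedom 1.71 over 5471 genes with at least 20 counts). Differences between classes were tested as an interaction with library as block. DESeq2 1.42.0 was an alternative. The test was tried on simulated data. Nuclei were thinned to 1000 UMIs for shares of nuclei, which left 285, 116, 147 and 182 endothelial-like nuclei. Intervals are exact at 95%. Levels in CPM are not corrected for gene length and were not compared between genes.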

Additional observations from a re-analysis of the deposited data

Results flagged for a closer look

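In 6 cases the effect of genotype on a barrier gene differed between endothelial-like nuclei and another class by edgeR's interaction test. In PS19 against WT the effect was higher in endothelial-like nuclei than in fibroblasts by 1.24 (log2) for Abcb1a, with an edgeR adjusted p of 0.0479, and by 1.36 for Abcg2. In TG_PS19 against WT the same difference for Abcg2 was 1.66. The Abcb1a call was lost with relative log expression scaling (edgeR adjusted p 0.110), and with the larger fibroblast cluster alone it was 0.26 (edgeR adjusted p 1). Against oligodendrocytes the difference in PS19 against WT was 1.28 for Abcg2 and 1.64 for Cldn5 (edgeR adjusted p 0.0340). Cldn5 in oligodendrocytes stood at 6.55, 2.91, 0.99 and 3.86 CPM in WT, PS19 replicates 1 and 2 and TG_PS19, from 45, 14, 6 and 26 UMIs. Against microglia the difference was 0.86 for Tjp1 (edgeR adjusted p 0.0165).

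Cldn5 was also high in nuclei that no comparison used. An unnamed cluster led by Sntb1, Fabp7, Efna5, Plekha4 and Hey2 held 282 WT nuclei and 1 other nucleus. It gave 175 Cldn5 UMIs, or 225 CPM (95% Poisson interval 193 to 261), 41.9% of the WT endothelial level. A Cldn5 UMI was found in 94 of the 282 nuclei (33.3%, exact 95% binomial interval 27.9 to 39.2) at a median depth of 2589 UMIs. The 10 endothelial markers summed to 55.4 CPM there, 0.369% of their level in WT endothelial-like nuclei. In this cluster Abcg2 was at 52.8 CPM, Slc2a1 at 51.5 CPM, Mfsd2a at 42.5 CPM, Slco1a4 at 11.6 CPM, Abcb1a and Slc7a5 at 5.15 CPM each and Ocln at 1.29 CPM. Endothelial-like nuclei held 47.1% of WT Cldn5 UMIs, against 70.0% to 85.5% in the other libraries.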

How the results depend on the processing

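No paired analysis was possible because the labels number the PS19 libraries alone. Of the values for single members in endothelial-like nuclei, 445 were counted as unchanged, 27 reversed, 6 moved with a PS19 library left out and 3 newly passed the test. Unchanged meant the same direction and side of the threshold. With a PS19 library left out, which gave no p-value, it meant within a standard error of the main value, whatever the direction. Changes of direction in those fits are therefore not among the 27. The main log2 changes that reversed lay between −0.35 (Plvap, PS19 against WT) and 0.31 (Slc7a5, TG_PS19 against WT). Under the class definition given next, every reversal but that of Plvap went from above 0 to below 0. The cause was not tested. Taking nuclei with UMIs of 2 of Flt1, Mecom and Ptprb as the class gave, in PS19 against WT, −0.033 for Slc2a1, −0.13 for Abcb1a, −0.083 for Slco1a4, −0.050 for Tjp1, 0.23 for Plvap, −0.072 for Slc7a5 and −0.15 for Ocln. In TG_PS19 against PS19 it gave −0.021 for Tjp1, and in TG_PS19 against WT −0.044 for Abcb1a, −0.29 for Slco1a4, −0.071 for Tjp1, −0.040 for Slc7a5, −0.11 for Ocln and −0.18 for Cldn5. Without the low-count filter, Abcb1a was −0.012 (PS19 against WT) and Slco1a4 −0.057 (TG_PS19 against WT). Thinning gave 0.019 for Cldn5 (PS19 against WT) and −0.054 for Tjp1 (TG_PS19 against PS19). Male-called TG_PS19 nuclei alone gave −0.65 for Abcg2, 0.18 for Slco1a4 and −0.17 for Tjp1 against PS19, and −0.019 for Tjp1 against WT. Scaling by library totals gave −0.0053 for Tjp1 (TG_PS19 against PS19) and −0.056 for Slco1a4 (TG_PS19 against WT), and keeping doublets gave −0.055 and −0.030 for the same values. Without arterial nuclei, Ocln was −0.029 (TG_PS19 against PS19). With a PS19 library left out, Slco1a4 in dentate granule neurons ran from −2.41 to 3.10 (PS19 against WT) and from −3.42 to 2.10 (TG_PS19 against PS19).

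Members called in endothelial-like nuclei numbered 1 in place of 0 without arterial nuclei (PS19 against WT and TG_PS19 against WT), and 1 with male-called nuclei alone (TG_PS19 against PS19). In the other classes DESeq2 called 0 in every comparison. The robust prior called 1 in TG_PS19 against PS19, and in TG_PS19 against WT relative log expression scaling called 0 and library totals 3. That scaling called 1 gene of the pathway list in TG_PS19 against WT. At 1000 UMIs or more, endothelial-like nuclei were 2.68% of WT and 2.31% of TG_PS19 nuclei. Library totals shifted median log2 changes by −0.05 to −0.17 in astrocytes, oligodendrocytes, their precursors, dentate granule and CA1 neurons in comparisons of TG_PS19. The share of higher calls in astrocytes (TG_PS19 against WT) then went from 75.3% to 35.4%. Relative log expression scaling changed the calls over all genes in some classes, given for PS19 against WT, TG_PS19 against PS19 and TG_PS19 against WT. Astrocytes went from 956, 1458 and 348 calls to 97, 211 and 3, and inhibitory neurons from 117, 218 and 207 to 0. Oligodendrocytes went from 547, 721 and 75 calls to 964, 1310 and 409.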
